A study of Homo sapiens with 12 samples.

Results

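Large H3K27me3 domains were stretches of the genome in which peaks of H3K27me3, the histone mark of Polycomb repression, lay close together and covered much sequence. H3K27me3 peaks on chromosomes 1 to 22 were joined wherever the gap between neighbours was 5000 bases or less, and a joined region was kept when 20000 or more of its bases lay inside peaks. This gave 444 large domains among 25626 joined regions, or 1.73% of them. They held 16.0 of the 72.1 Mb of H3K27me3 peaks, which is 22.3% of the covered bases. The H3K27me3 list itself chose the domains, so their number, size and fill are descriptions without a test.

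The cells were RWPE-1, a prostate epithelial line immortalised with human papillomavirus 18, cultured without serum in a keratinocyte medium with pituitary extract and EGF and used at low passage. All libraries came from this 1 untreated line. Chromatin immunoprecipitation with sequencing was done for 5 histone marks with 2 replicates each, and 1 input and 1 DNase library, not analysed here, completed the 12 samples. The labels name 1 combined peak list per mark, so each mark is 1 pooled list. The values below have no error between replicates, and the read depth behind the lists is unknown. Intervals are 95% Wilson intervals. They treat domains or ends as independent and cover counting error only.

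H3K27me3 is placed by PRC2 and read by PRC1, and broad domains of it typically lie over silent developmental genes and over long repressed stretches between active genes. H3K4me3 marks promoters, and together with H3K27me3 it forms the bivalent state of silent promoters. H3K4me1 marks enhancers and the surroundings of promoters, and H3K27ac, which occupies the same lysine as H3K27me3, marks active promoters and enhancers. H3K36me3 is laid down over the bodies of transcribed genes, and nucleosomes that carry it are poor substrates for PRC2.

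The domains were mosaics of many peaks rather than single blocks. The median domain spanned 47.5 kb, held 28.4 kb of peaks (quartiles 23.7 and 38.2 kb) and was built of 21 peaks, with a range of 1 to 145. The fill share, the part of the span that lay inside peaks, had a median of 63.7% (quartiles 54.4 and 75.5%) and ran from 33.9 to 100%. It was 80% or more in 78 domains and under 50% in 71. In the median domain the longest peak was 6042 bases long and the longest gap 3861 bases. There were 253 domains with 20 to 30 kb covered, 135 with 30 to 50 kb and 56 with 50 kb or more, and their median fill was 61.6%, 64.2% and 70.4%. Only 9 domains had 100 kb or more inside peaks.

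The minimum of 20000 covered bases fell in a continuous run of sizes. The 3 smallest members, on chromosomes 7, 8 and 15, had 20104, 20070 and 20053 covered bases. The 3 regions that just missed it, on chromosomes 6, 20 and 5, had 19997, 19922 and 19883. At both sides of the minimum the shapes were mixed, with fills of 81.0%, 66.4% and 42.5% inside and 84.9%, 53.4% and 34.9% outside.

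**Figure D1:**
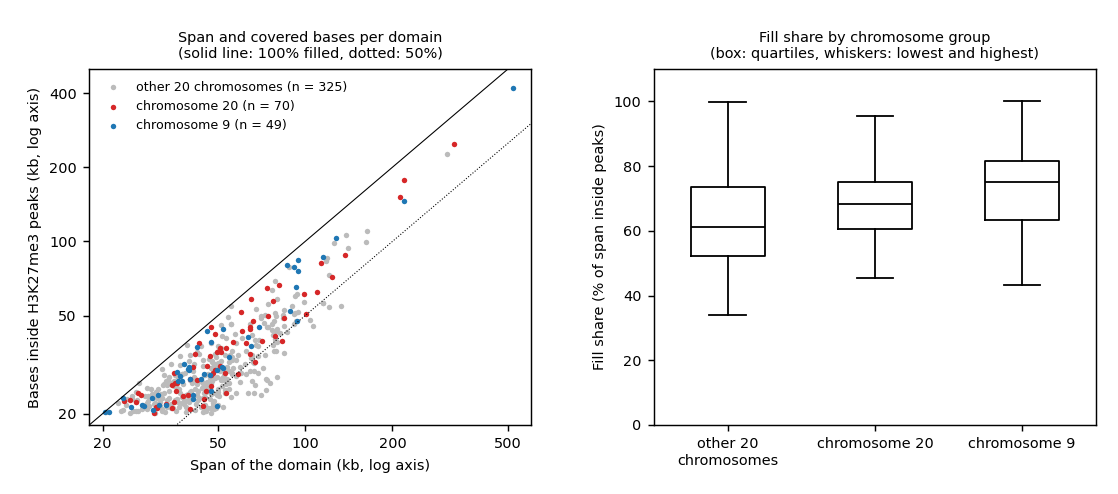
Span (x axis, kb) and bases inside H3K27me3 peaks (y axis, kb) of each of the 444 large domains, both on log axes, and the fill share in percent by chromosome group (box for the quartiles, whiskers to the lowest and highest value). The points of chromosomes 9 and 20 reach farther to the upper right, and their median fills of 74.95% and 68.4% lie above the 61.3% of the other 20 chromosomes.

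The 5 fullest domains were mostly small, although median fill rose with covered size, and each of the 5 held H3K4me3. On chromosome 9, the domain from 140049796 to 140070167 (hg19) was 1 H3K27me3 peak of 20.4 kb, and 2 H3K4me3 peaks covered 28.5% of it. The domain on chromosome 19 from 49919882 to 49946544 was filled to 99.9% by 2 peaks, and its 3 H3K4me3 peaks covered 25.9%. The other 3 of the 5 fullest, on chromosome 19 from 1748260 to 1768754 and from 48406643 to 48462105 and on chromosome 9 from 129370216 to 129393758, had fills of 98.2 to 99.1% and H3K4me3 over 12.01 to 47.7%. The 5 with the lowest fill, between 33.9 and 36.2%, were long and thin, at 66.6 to 79.9 kb of span. Of these, 4 held no H3K4me3 peak, and the one on chromosome 5 from 38126371 to 38206292 held 1 over 1.08% of its length.

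Inside the large domains the promoter mark H3K4me3 was dense and the marks of activity were scarce. H3K4me3 peaks touched 261 of the 444 domains, or 58.8% (54.2 to 63.3), where 14.2% of all H3K27me3 domains were touched. H3K4me1 also touched 261 domains, 58.8%, against 11.5% of all domains. H3K27ac touched 79, or 17.8% (14.5 to 21.6), against 5.08%, and H3K36me3 touched 58, or 13.1% (10.2 to 16.5), against 1.92%. A longer domain offers more sequence to touch, so these shares were set beside the covered bases. H3K4me3 covered 3.33% of the sequence in the large domains, 2.08 times its 1.60% of chromosomes 1 to 22. H3K4me1 covered 2.21% of it against 6.44% of the chromosomes, H3K27ac 0.419% against 3.96% and H3K36me3 0.568% against 3.87%. For the last 3 marks this was 0.343, 0.106 and 0.147 of the chromosomal share. The covered shares depended on the joining distance. The share of H3K4me3 fell from 7.97% with 1 kb to 1.69% with 20 kb, and that of H3K36me3 from 1.26% to 0.356%. For H3K4me1 and H3K27ac the 5 kb distance gave the lowest value, with 3.91% and 0.571% at 1 kb and 2.68% and 0.703% at 20 kb.

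For H3K4me3, touching rose with the size of the domain while the covered share fell. H3K4me3 touched 37.3% (35.6 to 39.1) of the 2957 domains with 5 to 20 kb covered and 67.9% (54.8 to 78.6) of the large domains with 50 kb or more. The share of bases under H3K4me3 was 4.30% in the former and 2.26% in the latter. H3K27ac covered 0.799% of domains of 5 to 20 kb, 0.619% of those of 20 to 30 kb and 0.189% of those of 50 kb or more. H3K36me3 had no such trend. It covered 0.244% at 5 to 20 kb, 0.513% at 20 to 30 kb, 0.909% at 30 to 50 kb and 0.246% at 50 kb or more, and it touched 4.53%, 13.04%, 12.6% and 14.3% of these domains. The class of 30 to 50 kb includes the domains with most H3K36me3, from 115820874 on chromosome 9 and from 140705651 on chromosome 5. H3K36me3 covered 70.3% and 33.6% of them, and the share of this class without them was not computed. The H3K4me1 share of bases hardly moved with size, from 2.16% at 5 to 20 kb to 2.29% at 50 kb or more. Its peaks per Mb fell between these classes, from 25.5 to 19.5. The class of 50 kb or more includes a domain on chromosome 19 from 48406643 to 48462105, with H3K4me1 over 69.8% of its 55.5 kb. The share of this class without that domain was not computed. Domains of 50 kb or more were touched by H3K4me1 in 80.4% of cases (68.2 to 88.7), with fewer peaks per Mb than those of 5 to 20 kb.

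**Figure D2:**
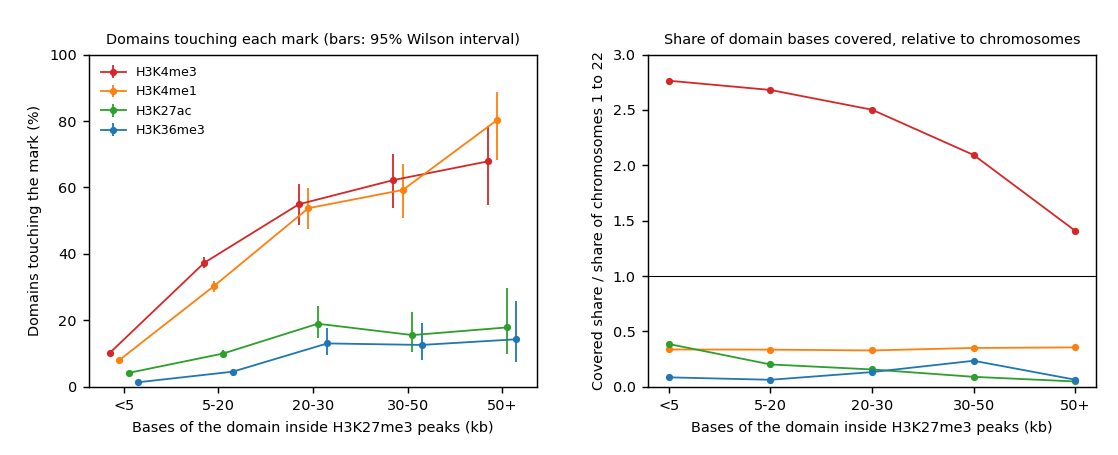
Share of H3K27me3 domains that touched each of the other 4 marks (left, percent, bars are 95% Wilson intervals) and covered share of the mark inside them divided by its share of chromosomes 1 to 22 (right), by the covered size of the domain in kb. Touching rose with size for H3K4me3 to 67.9% and for H3K4me1 to 80.4%, while the covered share of H3K4me3 fell from 2.76 to 1.41 times the chromosomal share and the other 3 marks stayed below 1 at each size.

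Combinations of marks set the domains apart from each other. H3K4me3 with H3K4me1 and nothing else was the most frequent state, in 105 domains or 23.6%. Another 86 domains, 19.4% (16.0 to 23.3), touched no peak of any of the 4 other marks. H3K4me1 alone was found in 75, H3K4me3 alone in 60, and H3K4me3 with H3K4me1 and H3K27ac in 38. All 4 other marks met in 15 domains. Combinations were counted in large domains only, and a longer domain offers more sequence to touch. Whether any of these states is particular to large domains was therefore not examined. Domains with H3K4me1 alone had a median fill of 57.7%, against 67.3% for H3K4me3 with H3K4me1 and 71.8% once H3K27ac was there too. Fill did not rise steadily with the number of marks. It was 62.2% with no other mark, 61.3% with H3K4me3 alone, 60.55% with H3K4me1 and H3K27ac, and 64.7% with all 4.

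The largest domain without any other mark lay on chromosome 20 from 56101561 to 56166523, with 58.6 kb of H3K27me3 in a span of 65.0 kb. A domain on chromosome 7 from 132028922 to 132144399 held 56.4 kb in 115 kb, a fill of 48.8%. A further domain of chromosome 20, from 58290861 to 58351078, held 51.7 kb. Those at 170079792 to 170171523 on chromosome 5 and 125422763 to 125493049 on chromosome 10 held 50.9 and 49.8 kb.

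H3K4me3 lay mostly under the H3K27me3 peaks of a domain and seldom in the gaps between them. Of 554 H3K4me3 peaks that touched large domains, 520 or 93.9% shared bases with an H3K27me3 peak. H3K4me3 covered 4.80% of the bases inside H3K27me3 peaks and 0.717% of the gap bases within the same domains, a ratio of 6.70. This lean was not particular to H3K4me3. Of 102 H3K36me3 peaks, 95 or 93.1% shared bases with an H3K27me3 peak. H3K36me3 covered 0.806% of peak bases and 0.147% of gap bases. The 5 domains with most H3K36me3 held 57.1% of its bases, and the shares of peak and gap bases without them were not computed. H3K4me1 covered 2.26% of peak bases and 2.12% of gap bases, which joins opposite values. On the other 20 chromosomes it leaned to the peaks (2.54% of peak bases and 1.925% of gap bases). On chromosome 20 it leaned to the gaps (1.48% of peak bases and 2.52% of gap bases), and on chromosome 9 likewise (1.98% and 2.98%). H3K27ac, with 91 peaks, covered 0.447% of peak bases and 0.369% of gap bases. It sat nearer the edges, since 31 of the 91 peaks (34.1%) had their centre in the outer 10% of the span at either end, against 18.4% of the H3K4me3 peaks, and 16, or 17.6%, ran across an end, against 3.61% of the H3K4me3 peaks.

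The H3K4me3 peaks in large domains had lower scores and less H3K27ac than those in smaller domains. A score is the value the authors' peak caller gave each peak, and it depends on depth and width. The median score was 186 in large domains, 279 in domains of 5 to 20 kb and 258 in domains under 5 kb, against 345 for the whole H3K4me3 list. Their median widths were 1322, 1400 and 1325 bases. H3K27ac touched 72 of the 554 H3K4me3 peaks in large domains, or 13% (10.4 to 16.1), 20.5% (18.5 to 22.6) of those in domains of 5 to 20 kb and 38.3% (36.3 to 40.3) of those in domains under 5 kb. H3K4me1 touched 28.3%, 26.1% and 28.1% of the same 3 sets, with intervals that overlap. Unlike the scores, these shares are set beside smaller H3K27me3 domains only and not beside the whole H3K4me3 list.

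H3K4me3 was spread unevenly over the domains. It was missing from 183 of the 444, 122 had 1 peak, and 19 had 5 or more. The most, 11 peaks each, were in 2 domains on chromosome 19, from 48406643 to 48462105 and from 50588976 to 50643015. In these, H3K4me3 covered 47.7% and 51.5%, H3K4me1 69.8% and 68.7%, and H3K27ac 3.19% and none of the span, under an H3K27me3 fill of 98.3% and 91.2%. This pair held 13.7% of all H3K4me1 bases in large domains, and without it the H3K4me1 share was 1.91%. A domain on chromosome 17 from 77762219 to 77789789 had 10 H3K4me3 peaks over 43.0% of its 27.6 kb and was the one with the most H3K27ac peaks among these, 4 of them over 20.6%. The domain on chromosome 10 from 102321183 to 102628813 had 9 H3K4me3 peaks over 4.82%, and one on chromosome 5 from 87955261 to 87992219 had 8 over 27.1%.

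H3K36me3 inside the domains was concentrated in a few of them. Only 12 of the 444 held 2 or more H3K36me3 peaks, and 5 domains, picked after their values were seen, held 57.1% of its bases. Without these 5 the covered share was 0.246%. The first was on chromosome 9 from 115820874 to 115866753. Its single H3K36me3 peak, 32.3 kb wide from 115820854 to 115853112, lay over 70.3% of the domain and began 20 bases before an H3K27me3 peak of 33.2 kb that ended at 115854111. All of its H3K36me3 bases in the domain lay under H3K27me3, and neither H3K4me3, H3K4me1 nor H3K27ac touched it. A domain on chromosome 5 from 140705651 to 140783318 was of another kind, with 25 short H3K36me3 peaks over 33.6% of it, 7 H3K4me3 peaks and 2 H3K27ac peaks. On chromosome 10 from 135475073 to 135499254, 1 H3K36me3 peak covered 46.1%, all of it under H3K27me3. The remaining 2 were on chromosome 15 from 102285383 to 102330578 (15.1%) and chromosome 1 from 149278706 to 149371182 (5.59%). Of these 5, the domains on chromosomes 10 and 15, 2 in number, lay within 500 kb of the last peak of their chromosome, as did 11 of all large domains counting both chromosome ends. Another 20 large domains lay within 5 Mb of the split of the arms. The part of such places in the result was not tested.

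Outside the ends, the marks returned at different distances. In the first 5 kb H3K27me3 is 0 by the joining rule. It covered 17.4% of the bases at 5 to 10 kb, 24.1% at 10 to 20 kb and 22.8% at 20 to 50 kb, against 2.58% of chromosomes 1 to 22, so H3K27me3 usually went on beyond the gap that ended a domain. Of the 888 flanks of 50 kb, 769 held H3K27me3, 400 had it over 20% or more of their bases, and 164 reached another large domain. Over flanks that did not reach one and held some peak, H3K27me3 covered 14.8%, against 20.2% over all flanks. Around domains of 5 to 20 kb it was 13.6%.

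H3K4me1 was the mark that came back first. It covered 2.63% of the 5 kb inside an end and 6.04% of the 5 kb outside, close to its 6.44% of the chromosomes. In the wider windows out to 50 kb it stayed between 5.51% and 6.15%. These values join unlike chromosomes. In the first 5 kb outside, H3K4me1 covered 9.35% on chromosome 9 and 8.47% on chromosome 20. On the other 20 chromosomes it covered 5.02% there and 5.24% at 20 to 50 kb, below the chromosomal share. The mark nearest to the end other than H3K27me3 was H3K4me1 at 517 of 888 ends (58.2%), H3K4me3 at 110, H3K27ac at 60 and H3K36me3 at 60. At 141 ends, none of the 4 lay within 50 kb. The median distance from an end to the next H3K4me1 peak was 14.8 kb, to H3K4me3 62.2 kb, to H3K27ac 66.1 kb and to H3K36me3 106 kb (quartiles 39.4 and 230 kb). H3K4me1 also had the most peaks in the genome, and these distances were not adjusted for peak number.

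Over all ends H3K4me3 dropped and H3K27ac rose. H3K4me3 covered 3.48% of the 5 kb inside, 1.98% of the 5 kb outside and 2.14% of the 50 kb outside, where its chromosomal share was 1.60%. The drop was in the other 20 chromosomes, from 3.88% of the 5 kb inside to 1.51% of the 5 kb outside. H3K4me3 went the other way on chromosome 20, with 2.39% inside and 3.495% outside, as it did on chromosome 9, with 2.33% inside and 2.97% outside. Over all ends H3K27ac went from 0.870% of the 5 kb inside to 2.73% of the 5 kb outside and 3.40% at 20 to 50 kb, below its 3.96% of the chromosomes. A flank with H3K27ac was found on neither side of 148 domains (33.3%), on 1 side of 203 (45.7%) and on both sides of 93 (20.95%). For domains of 5 to 20 kb these shares were 40.9%, 38.5% and 20.6%.

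H3K36me3 climbed slowly over the 50 kb. It covered 0.595% of the 5 kb inside and 1.396% of the 5 kb outside, then 3.10% at 5 to 10 kb, 3.61% at 10 to 20 kb and 4.97% at 20 to 50 kb, against 3.87% of the chromosomes. Domains of 5 to 20 kb had 0.651% in the first 5 kb outside and 2.94% over 50 kb, where the large domains had 4.15%. That gap was not shared by all chromosomes. The share over 50 kb was 8.28% around the domains of chromosome 9, 6.66% around those of chromosome 20 and 2.996% around those of the other 20 chromosomes, the last about the same as around domains of 5 to 20 kb genome-wide. These chromosomes were also rich in H3K36me3 as a whole. It covered 8.19% of the arms of chromosome 20, 6.07% of those of chromosome 9 and 3.81% of those of the others. Against their own chromosomes, the flanks were at 0.813 on chromosome 20, 1.36 on chromosome 9 and 0.786 on the others. On the long arms alone the ratio was 0.676 for chromosome 20 and 1.08 for chromosome 9, so the flanks were below the level of the arm on chromosome 20 and near it on chromosome 9. H3K36me3 was absent from both flanks of 227 domains (51.1%), present on 1 side of 167 (37.6%) and on both sides of 50 (11.3%). For domains of 5 to 20 kb these shares were 58.7%, 31.45% and 9.875%. Large domains of the other 20 chromosomes had 54.8%, 35.4% and 9.85%. H3K36me3 covered 20% or more of 68 flanks, and just 4 domains had that on both sides.

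**Figure D3:**
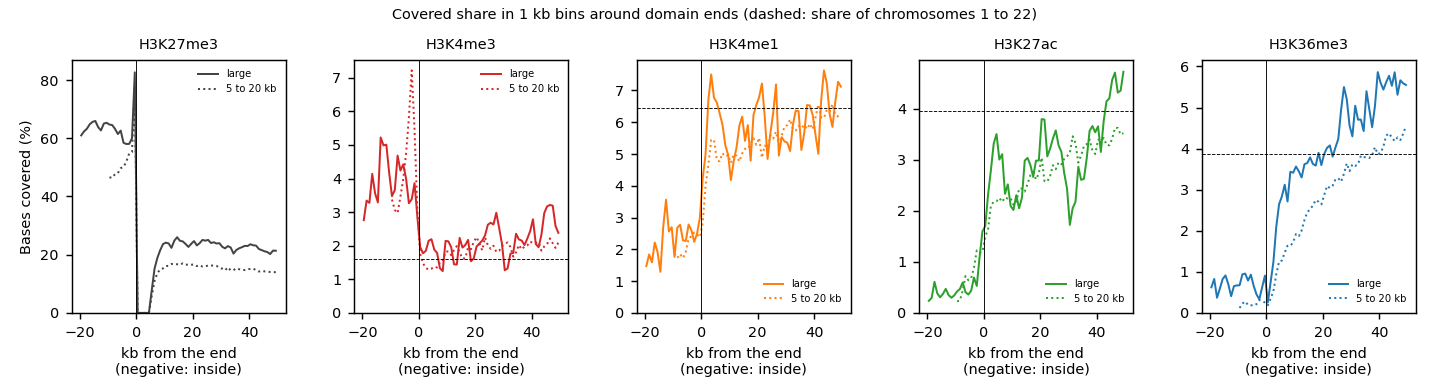
Share of bases covered by each mark (y axis, percent) in 1 kb bins from 20 kb inside to 50 kb outside domain ends (x axis, kb), for large domains (solid) and domains of 5 to 20 kb (dotted, from 10 kb inside), with the share of chromosomes 1 to 22 as a dashed line for the 4 other marks. H3K27me3 is 0 in the first 5 kb by the joining rule, and H3K36me3 rises over the whole window to 4.97% at 20 to 50 kb. H3K4me1 reaches its dashed line within 3 kb, from 4.24% in the first kb to 6.70% in the bin at 2.5 kb. It then falls back, to 4.18% in the bin at 10.5 kb.

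Among the 10 largest domains, H3K36me3 came within 10 kb of 2 of the 20 ends, and both were on chromosome 9. The largest, on chromosome 9 from 137737938 to 138259021, had no H3K27me3 within 50 kb of its lower end and H3K36me3 over 33.5% of that flank, 3.03 kb away at the nearest. Beyond its upper end H3K27me3 went on, over 59.0% of the flank, with no H3K36me3. The domain on chromosome 20 from 61595539 to 61815215 was instead enclosed by active chromatin. H3K4me1 covered 39.5% and 36.8% of its lower and upper flank, H3K27ac 29.7% and 9.61%, and H3K36me3 26.3% and 33.5%. The domain on chromosome 10 from 102321183 to 102628813 had no H3K27me3 within 50 kb at either end, the nearest being 76.8 and 179 kb away, and H3K36me3 covered 21.2% of its lower flank and 1.59% of the upper one. The domains on chromosomes 12 (2581908 to 2745371), 17 (77276389 to 77414979) and 16 (86129404 to 86291202) continued into H3K27me3 on both sides, with 36.7 to 63.2% of each flank covered and no H3K36me3 within 50 kb. The neighbours on chromosome 20 from 57673263 to 57998474 and from 58015851 to 58228594 faced each other across 17.4 kb and had no H3K36me3 in any of their flanks.

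Ends that met H3K36me3 directly were few. H3K36me3 lay within 5 kb outside at 45 of the 888 ends, or 5.07% (3.81 to 6.71), where 2.51% of the ends of all H3K27me3 domains had it. The share was 3.04% (2.64 to 3.51) for domains of 5 to 20 kb. By chromosome it was 13 of 140 ends on chromosome 20, 10 of 98 on chromosome 9 and 22 of 650, or 3.38% (2.25 to 5.07), on the other 20, which overlaps the interval of the smaller domains. As given above, H3K36me3 covered more of chromosomes 9 and 20 as a whole.

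A sharp end was defined as one with H3K27me3 over 50% or more of the inner 10 kb, H3K36me3 over 20% or more of the outer 10 kb and H3K36me3 over less than 5% of the inner 10 kb. By this rule 20 of the 888 ends were sharp, or 2.25% (1.46 to 3.45), against 0.219% of the ends of all domains. Of the 25626 domains, 22225 cover less than 5 kb and could hardly fill the inner 10 kb, so the set of 5 to 20 kb is the nearer comparison, with 92 of 5914 ends or 1.56% (1.27 to 1.90). These intervals overlap. The 20 sharp ends belonged to 20 domains, and no large domain had both ends sharp. Chromosome 20 had 9 of them (6.43% of its ends, 3.42 to 11.8), chromosome 9 had 3 and the other 20 chromosomes together 8 (1.23%, 0.625 to 2.41).

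The distance from the last H3K27me3 base to the first H3K36me3 base had a median of 2.79 kb at the sharp ends and ran from 0.899 to 6.23 kb. The rule sets an upper limit to this distance, since H3K36me3 must fill 20% of the outer 10 kb. H3K27me3 filled a median of 78.3% of the inner 10 kb, and H3K36me3 53.3% of the outer 10 kb. In 12 of the 20 there was no H3K27me3 at all in the 50 kb outside, whereas this held for 107 of the 868 other ends, and the other ends had a median of 17.8%. H3K36me3 was part of the rule and H3K27me3 beyond 5 kb was not. Peaks of both marks can overlap, and whether H3K36me3 in a flank bears on the H3K27me3 there was not tested.

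The 5 sharp ends with most H3K36me3 outside were on chromosomes 9 and 20. On chromosome 9, the domain from 135340651 to 135467997 ended 0.899 kb before H3K36me3 began at 135468897. Its inner 10 kb were fully under H3K27me3, H3K36me3 covered 66.4% of the outer 50 kb in 14 peaks, and the next H3K27ac and H3K4me3 peaks were 37.6 and 75.9 kb away. On the long arm of chromosome 20, the domain from 60653353 to 60694483 was followed by H3K36me3 from 60699384 on, over 65.9% of 50 kb, and there H3K4me3, H3K27ac and H3K4me1 all sat at the junction. The lower end at 36036625 likewise had these 3 marks at the junction, with H3K36me3 over 64.0% of the outer 50 kb starting 3.60 kb away. The ends at 60783816 (lower, 55.7%) and 30694105 (upper, 54.0%) had none of the 3 within 2.5 kb. At 30694105, however, H3K27ac and H3K4me3 lay 2.763 and 2.865 kb outside, before H3K36me3 began at 5.904 kb.

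The other 15 sharp ends varied in how far the H3K36me3 went on. It covered 53.5% of the outer 50 kb below 42415132 on chromosome 19, 52.0% above 139097733 and 45.5% above 140070167 on chromosome 9, and 51.3% above 70748716 on chromosome 5. The end at 140070167 closed the domain made of a single H3K27me3 peak, so there 1 unbroken block of H3K27me3 was followed after 2.04 kb by H3K36me3 over 79.6% of the outer 10 kb. On chromosome 1 the end at 878902 had H3K36me3 over 86.8% of the outer 10 kb, the most of the 20, and over 33.8% of 50 kb. At 49946544 on chromosome 19, H3K4me3 and H3K27ac peaks ran across the end itself. The end at 85844002 on chromosome 16 switched within 1.38 kb with none of the 3 other marks at the junction. At the ends 624446 and 638753 on chromosome 20, in contrast, H3K36me3 stood over 10.01% of the outer 50 kb and H3K27me3 returned over 57.7% and 52.6%. The weakest by this measure, at 149136678 on chromosome 1, had a single H3K36me3 peak over 4.2% of the outer 50 kb.

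Promoter marks were common at sharp ends, in about as many cases as they were missing. Within 2.5 kb of the end on either side, H3K4me3 was present at 10 of 20 sharp ends (50%, 29.9 to 70.1), H3K27ac at 9 and H3K4me1 at 9. Of the 20, 8 had none of the 3, among them the end at 30694105, with H3K27ac and H3K4me3 just beyond 2.5 kb. At the 868 other ends the shares were 9.56% (7.78 to 11.7), 5.3% (3.996 to 6.997) and 19.2% (16.8 to 22), and 75.1% had none. The 45 ends with H3K36me3 within 5 kb outside, some of them sharp, had intervals that overlap those of the sharp ends. H3K4me3 was at 42.2% of these (28.97 to 56.7) and H3K4me1 at 31.1% (19.5 to 45.7). The share with H3K27ac was 26.7% (15.96 to 41.04), and 48.9% had none of the 3. The sharp ends were picked by H3K36me3 and H3K27me3 and not by these 3 marks.

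On chromosome 20, sharp ends faced each other in 2 places. Between the domains that end at 624446 and begin at 638753 lay an interval of 14.3 kb with 1 H3K36me3 peak over 34.97%, 1 H3K4me3 peak over 15.01% and 1 H3K27ac peak over 17.7% of it. Between those that end at 60694483 and begin at 60783816 lay 89.3 kb with 19 H3K36me3 peaks over 59.3%, 12 H3K4me1 peaks, 7 H3K27ac peaks and 3 H3K4me3 peaks, and no H3K27me3.

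**Figure D4:**
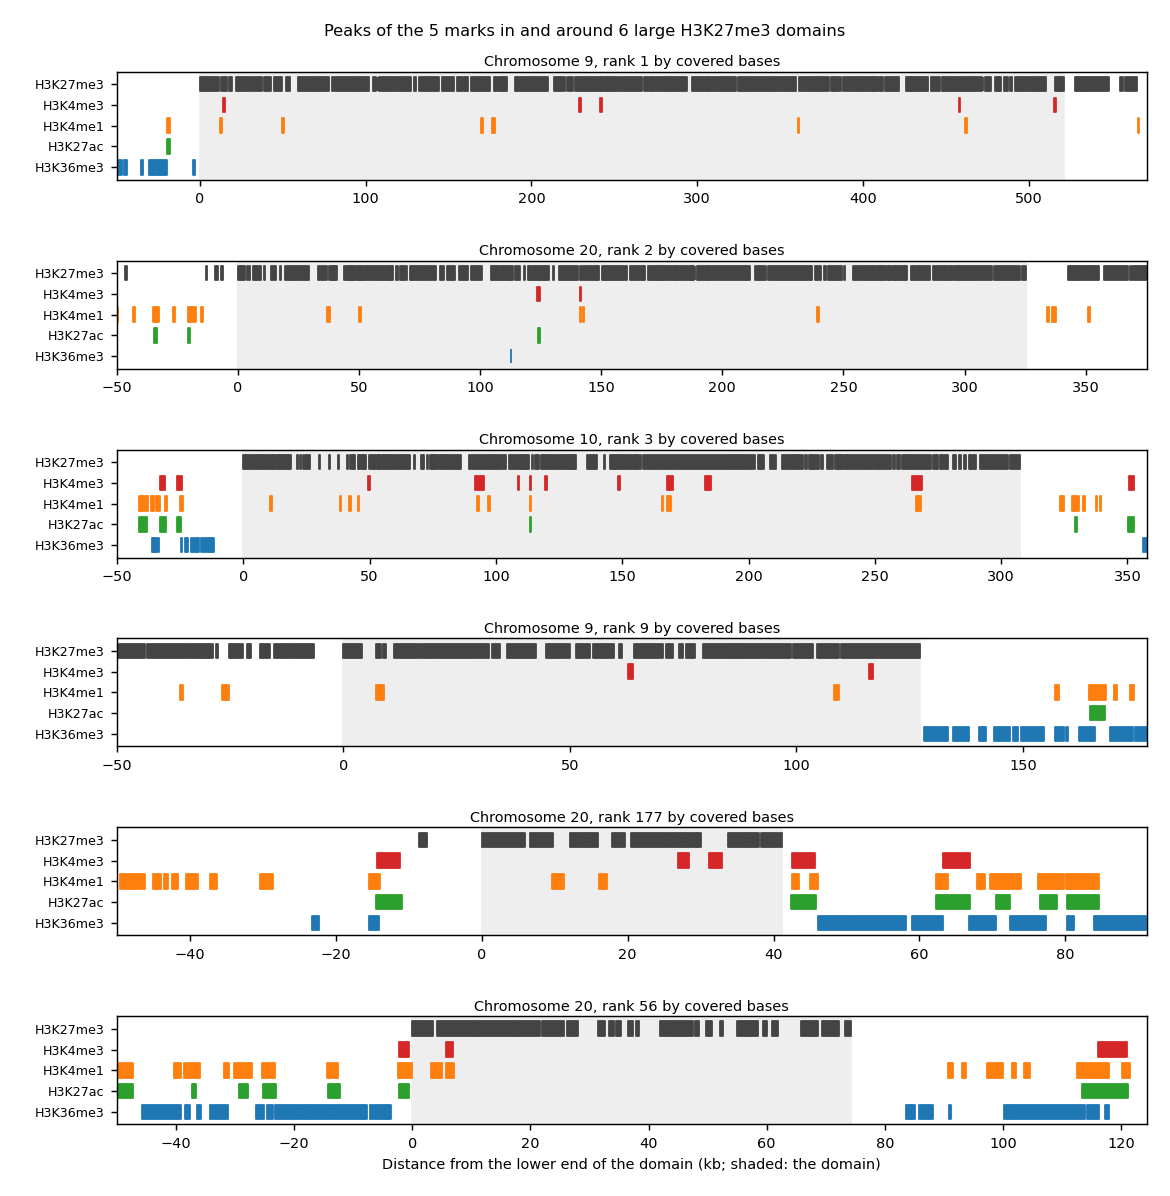
Peaks of the 5 marks (rows) in 6 large domains (shaded) and the 50 kb on each side, by distance from the lower end in kb: the 3 domains with most covered bases and the 3 with the sharp ends that had most H3K36me3 outside. H3K36me3 blocks stand at 1 side of the domains at ranks 1 and 9 (33.5% and 66.4% of the flank), and H3K27me3 goes on at the other side.

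The domains were concentrated on 2 chromosomes. Chromosome 20 had 70 large domains, 1.17 per Mb, and chromosome 9 had 49, or 0.398 per Mb, against 0.129 per Mb for the 325 on the other 20 chromosomes. These 2 chromosomes made up 2.21% and 4.56% of the sequence and held 15.8% and 11.04% of the domains. On chromosome 20, 7.07% of all H3K27me3 domains were large, on chromosome 9 4.25% and on the others 1.38%. The copy number of the chromosomes in these cells was not examined, and its part in these densities was not tested. Chromosome X, outside the rule, had 555 H3K27me3 peaks and no region that reached the minimum, the largest having 18274 covered bases.

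The excess was mostly on the long arms. The arms were split at the longest stretch without any peak, and the short arms of chromosomes 13, 14, 15, 21 and 22 were not counted apart. The long arm of chromosome 20 carried 55 domains, 1.65 per Mb. Their peaks covered 7.63% of the arm and 56.2% of its H3K27me3 bases. The long arm of chromosome 9 carried 44, or 0.581 per Mb, with 2.84% of the arm and 45.4% of its H3K27me3. The short arm of chromosome 20 had 15, or 0.573 per Mb and 1.84% of the arm. The short arm of chromosome 9 had 5, or 0.106 per Mb and 0.378%, all between 33633443 and 37695405. That was close to the median of the 35 arms of the other chromosomes, 0.0939 per Mb, which ranged from 0 to 0.429.

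On the long arms of chromosomes 20 and 9 many domains lay toward the chromosome end. On the long arm of chromosome 20, 28 of 55 began in the last 10 Mb, and on that of chromosome 9, 19 of 44. These arms were 33.4 and 75.7 Mb long, so the last 10 Mb were a larger part of the former. This was not particular to them. Other long arms ranged from 7 of 7 on chromosome 8, 6 of 6 on chromosome 16 and 15 of 24 on chromosome 17 to 0 of 13 on chromosome 1. In steps of 10 Mb the fullest were 50 to 60 Mb on chromosome 20, with 21 domains and 1205 kb of peaks, and 130 to 140 Mb on chromosome 9, with 17 domains and 1156 kb. No large domain lay on chromosome 20 between 10 and 20 Mb. The largest of the short arm of chromosome 20, from 638753 to 716186, held 57.3 kb, and the largest of the short arm of chromosome 9, from 36982363 to 37076478, held 75.7 kb with 4 H3K4me3 peaks.

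On the other chromosomes, the long arms of chromosomes 15, 5, 10 and 17 led with 33, 28, 25 and 24 domains, and the short arm of chromosome 16 had none. Chromosome 17 had the highest covered share of these, 1.402% of its long arm, and the long arm of chromosome 10 the most covered bases, 1082 kb. After the domain already described, the largest on the long arm of chromosome 10 were those from 125169132 to 125289474 (72.9 kb, no H3K4me3) and from 119272802 to 119366503 (61.2 kb, 3 H3K4me3 peaks). On the long arm of chromosome 17 the largest was followed by the domains from 46768937 to 46841392 (50.1 kb, 3 H3K4me3 peaks and 1 H3K27ac peak) and from 75894144 to 75985406 (46.0 kb).

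Peaks of all 5 marks were wide on the long arms of chromosomes 20 and 9, which had most domains. The median H3K27me3 peak was 914 bases wide on the long arm of chromosome 20 and 875 on that of chromosome 9, against 484 to 748 on the 35 arms of the other chromosomes. H3K36me3 peaks had medians of 978 and 1008 bases there, against 529 to 935, and H3K4me1 peaks 1183 and 1170, against 697 to 977. For H3K4me3 the medians were 1878 and 1736, against 945 to 1765, and for H3K27ac 1904 and 1918, against 993 to 1866. Not each arm rich in domains had wide peaks. The long arm of chromosome 10, which was at place 5 of 39 by number of domains, was at place 16 by the median width of H3K27me3 peaks, 578 bases, and between places 18 and 27 for the other marks. Across 39 arms, the covered share of large domains and the median H3K27me3 peak width had a Spearman rho of 0.653, and across the 35 arms of the other chromosomes 0.566. The widths of the other 4 marks gave 0.497 to 0.542 across the 39 arms and 0.381 to 0.416 across the 35. Arms share the same 5 libraries, so these are descriptions. A wider peak fills more of a domain directly, and what part of the excess follows the widths was not tested. With peaks of a score of 100 or more, the density per Mb on chromosomes 20 and 9 was 11.4 and 4.52 times that of the other chromosomes, against 9.10 and 3.09 times with all peaks. The median H3K27me3 score was 119.8 and 106.9 on the long arms of chromosomes 20 and 9, and 98.9 or less on every other arm. A minimum of 100 therefore keeps a larger share of the peaks on these long arms, and the higher ratios are no test of the excess.

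**Figure D5:**
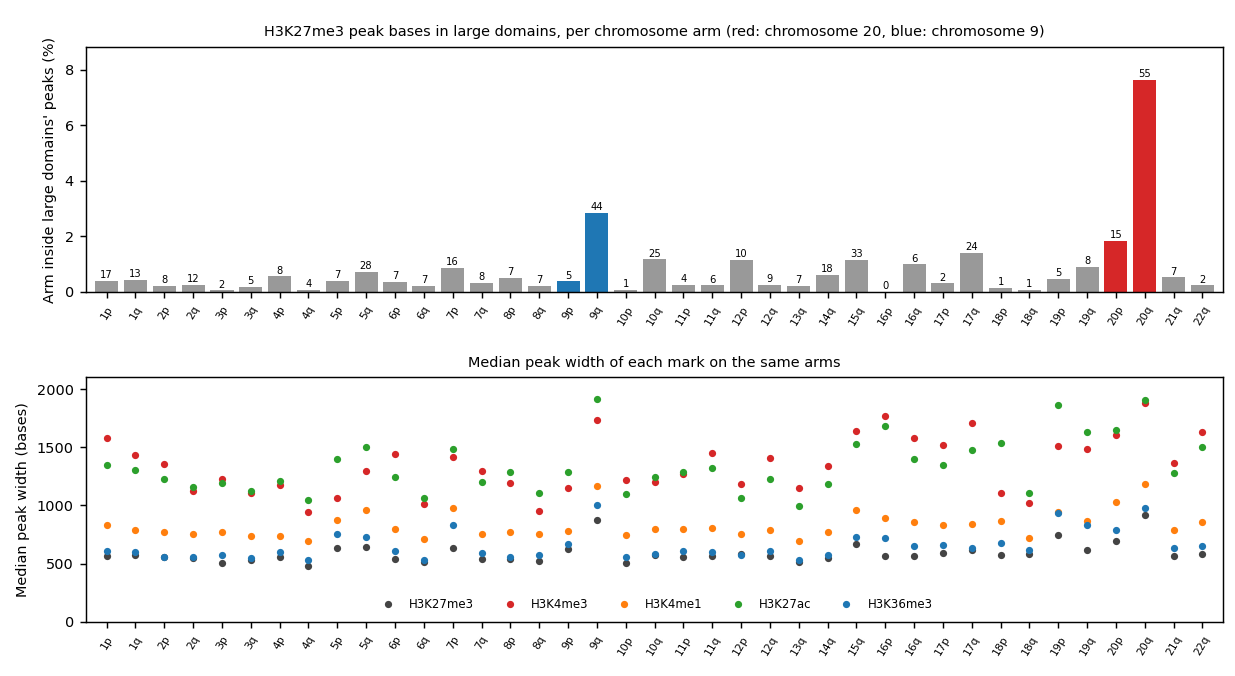
Share of each chromosome arm inside the peaks of large domains (top, bars in percent, number of domains above each bar) and median peak width in bases of the 5 marks on the same arms (bottom, points). The long arms of chromosomes 20 and 9 stand at 7.63% and 2.84%, other chromosomes at 1.402% or less, and the same pair of arms has the widest or nearly the widest peaks in each list.

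The domains of chromosomes 9 and 20 also differed from the others in parts of their makeup. Their H3K27me3 peaks filled more of the span, 74.95% on chromosome 9 and 68.4% on chromosome 20 at the median against 61.3%. H3K4me3 touched similar shares of domains, 53.1% (39.4 to 66.3), 60% (48.3 to 70.7) and 59.4% (54.0 to 64.6), but covered less of their span, 2.64% and 2.22% against 3.73%. H3K27ac touched 5 of 49 (10.2%, 4.44 to 21.8), 10 of 70 (14.3%, 7.95 to 24.3) and 64 of 325 (19.7%, 15.7 to 24.4), with intervals that overlap. H3K36me3 covered 1.19% of the span on chromosome 9, and 0.179% once the domain from 115820874 to 115866753 was left out, against 0.151% on chromosome 20 and 0.561% on the others. Without the other 4 of the 5 domains with most H3K36me3, the share on the others was 0.283%. Outside, H3K4me1 covered 8.50% and 8.47% of the 50 kb on chromosomes 9 and 20 against 5.06%, and H3K27ac 4.48% and 4.34% against 2.62%. Both chromosomes also had more of these marks as a whole, with H3K4me1 over 8.11% and 11.01% of the arms of chromosomes 9 and 20 and 6.5% of the others, and H3K27ac over 4.94%, 6.75% and 4.001%. Relative to its own chromosome, H3K4me1 in the flanks was at 1.05 on chromosome 9, 0.769 on chromosome 20 and 0.78 on the others. H3K27ac was at 0.907, 0.643 and 0.655. On the long arms alone, H3K4me1 in the flanks was at 0.83 of the arm on chromosome 9 and 0.697 on chromosome 20. For H3K27ac these values were 0.749 and 0.601.

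Large domains came in groups. Of 422 pairs of neighbours on the same chromosome, 31 were within 10 kb, 120 within 100 kb and 249 within 1000 kb. Linking domains within 500 kb of each other left 151 single domains and put the other 293 into 93 groups, 17 of which had 5 or more. The group with most domains was on chromosome 20 from 58890455 to 59829937, with 10 domains and 427 kb of peaks in 0.940 Mb. The next was on chromosome 15 from 72936583 to 74607442, with 9 domains and 280 kb of peaks. The group with most covered bases, 621 kb in 6 domains, began with the largest domain of all, on chromosome 9 from 137737938 to 139097733. Groups of 7 lay on chromosome 10 from 124399394 to 125684474 and chromosome 20 from 44081159 to 45183810. In the 120 gaps of up to 100 kb between neighbours, H3K4me1 was present in 73, H3K27ac in 35, H3K4me3 in 26 and H3K36me3 in 17. Their median length was 32.2 kb. H3K36me3 covered 4.33% of the gap bases, all of it in those 17 gaps, which include both intervals between facing sharp ends on chromosome 20.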

How the data were processed

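Peak lists of 5 histone marks in RWPE-1 cells were used, 1 per mark, which the labels name as the combination of 2 replicates. The submitters' processing notes name hg19 with MACS 1.4, CASAVA 1.8.2 and Bowtie2. Not given in the sources used here is how the replicates were combined, with which control and settings. Each list deposited by the authors gives peak positions and 1 score per peak, with a lowest score of 50. The score is not defined in the sources used here. It served only for description and for an alternative with a minimum of 100 in all 5 lists. A caller for narrow peaks splits broad marks, so the number of peaks in a domain follows the caller.

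Positions are hg19, counted from 1. Between 849 and 5353 peaks per list lay outside chromosomes 1 to 22 and were left out of the domains. Touching means at least 1 shared base. Flanks stopped at the first or last peak of a chromosome, and windows inside an end stopped at the middle of the domain, except the fixed 10 kb zones of the sharp-end rule. Arm lengths run from the first to the last peak of any mark. No hg19 genome or annotation was used, so regions carry no gene names or sequences and the planned gene lists were not run.

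The domains and lists were chosen with earlier results of these data known. Named regions were the 10 largest domains, 3 on each side of the minimum, the 5 fullest and 5 emptiest, the 5 sharp ends with most H3K36me3 outside, the 5 with most H3K4me3 peaks, the 5 largest without another mark, and the largest per arm of chromosomes 9 and 20 and of the leading other arms. The marks' shares of each chromosome and arm were set beside the flanks after the values were seen. No p-value was possible with 1 list per mark. The alternatives tried were other joining distances, minimum sizes, scores, flank lengths and end rules. On simulated data the code was tested against base-by-base counts, with 0 mismatches in 10655 comparisons. The tools were matplotlib 3.10.9, scipy 1.17.1, pandas 2.3.3, numpy 2.4.6 and Python 3.11.15.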

Additional observations from a re-analysis of the deposited data

How the results depend on the processing

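Of 190 values under alternatives, 106 stayed near the main value, within 1.5 times for counts, within the Wilson interval for shares of domains or ends and within both for shares of bases, and 84 moved. No paired analysis was possible because each mark has 1 combined list, and leaving out a replicate was not possible for the same reason. Depth limits what can be called a peak, and it is unknown for each list.

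Joining over 1 kb gave 128 large domains with a median fill of 93.9%, of which 64.1% touched H3K4me3, 39.8% H3K4me1, 13.3% H3K27ac and 9.38% H3K36me3. H3K4me3, H3K4me1 and H3K36me3 then covered 7.97%, 3.91% and 1.26% of the span, H3K27me3 33.5% of the 50 kb outside, 7 ends were sharp, and the density ratios to the other chromosomes were 6.65 for chromosome 9 and 14.3 for chromosome 20 (main 3.09 and 9.10). With 2.5 kb there were 269 domains, a fill of 80.9%, 46.1% with H3K4me1, H3K4me3 over 5.27% of the span, 27.7% H3K27me3 outside and 9 sharp ends. With 10 kb the fill was 45.5%, the touching shares 65.8%, 76.1%, 27.2% and 19.2% in the same order, H3K4me3 over the span 2.18%, H3K27me3 outside 11.8% and sharp ends 31. With 20 kb there were 777 domains, a fill of 32.3%, touching shares of 74.7%, 90.6%, 46.9% and 28.2%, H3K4me3, H3K27ac and H3K36me3 over 1.69%, 0.703% and 0.356% of the span, and 41 sharp ends. Outside were then 4.22% H3K27me3, 9.03% H3K4me1, 5.55% H3K27ac and 7.38% H3K36me3, and the density ratios were 1.95 and 4.22.

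Scores of 100 or more were required in all 5 lists. The median H3K4me1 score was 95.8, so most H3K4me1 peaks were removed too. This gave 270 domains, a fill of 72.7% and touching shares of 54.1%, 25.2%, 8.89% and 7.78%. H3K4me1 lay over 1.39% of the span and 3.86% of the flanks, and the long arms of chromosomes 15 and 5 had 14 and 15 domains. A minimum of 10 kb gave 1321 domains, touching shares of 49.7%, 45.6%, 12.9% and 9.08%, 17.4% H3K27me3 outside, 47 sharp ends, and 105, 108, 75 and 90 domains on the long arms of chromosomes 20, 9, 15 and 5. A minimum of 40 kb gave 100 domains, of which 64% touched H3K4me3 and 75% H3K4me1, H3K27ac over 0.269% of the span, 24.2% H3K27me3 outside, 7% of ends near H3K36me3, 6 sharp ends, and 20, 14, 7 and 6 domains on the same arms.

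Without chromosomes 9 and 20, H3K36me3 outside was 2.996%, ends near it 3.38% and sharp ends 8. Flanks without another large domain had 14.8% H3K27me3. Limits of 2 and 10 kb for H3K36me3 near an end gave 1.91% and 9.35%. Stricter and looser sharp-end shares gave 13 and 39 sharp ends, and zones of 20 kb gave 34. The cause of these moves was not tested, beyond the fewer or more bases that each setting admits by construction. Chromosome X added no large domain.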
